A study of Mus musculus with 8 samples.

Results

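The genes described here encode the enzymes that make cholesterol and fatty acids, together with the regulators that set their transcription and a sterol carrier. Of 31 genes listed by symbol, 30 had values among the 38991 genes measured, 29 found by symbol and 1, Msmo1, by its Ensembl identifier because it is listed under its older symbol Sc4mol. Mvd was not analysed here. The 30 genes fall into 4 roles: 6 genes of the mevalonate part and 10 of the squalene to cholesterol part (together the sterol branch, 16 genes), 8 genes of the fatty acid branch, and 6 regulators and sterol transport genes. All 30 were above the minimum level for testing, FPKM (fragments scaled by transcript length and by mapped fragments) of at least 1 in at least 2 cultures, which 12927 genes passed.

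RNA was sequenced from mouse embryonic stem cells of 1 line of strain 129, Rex1GFPd2, which carries a destabilised GFP reporter for Rex1 (Zfp42), a marker of naive pluripotency. Every culture was grown on gelatin in the serum-free medium N2B27, for 6 passages in 2i and then for 5 in its own condition, and was collected at passage 11 with replating every 3 days at 15000 cells per cm2. The components varied were CH (CHIR99021, an inhibitor of the kinase GSK3, at 3 µM), PD (PD0325901, an inhibitor of the kinase MEK, at 1 µM) and LIF, a cytokine that activates Stat3. There were 2 cultures in each of 4 conditions: 2i+LIF holds CH, PD and LIF, 2i holds CH and PD, CH+LIF lacks PD, and LIF+PD lacks CH. The comparison of 2i with 2i+LIF therefore bears on LIF, that of LIF+PD with 2i+LIF on CH, and that of CH+LIF with 2i+LIF on PD. Nothing in the labels says how far the 2 cultures of a condition were kept apart, so the p-values measure only the spread between these cultures, which may be technical.

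Cholesterol and fatty acids are both built from acetyl-CoA. In the mevalonate part acetyl-CoA is turned into isoprenoid units, and from squalene onwards the product is closed into a ring system and trimmed to cholesterol, while in the fatty acid branch it is carboxylated, joined into palmitate, elongated and desaturated. Transcription of both branches is driven by the membrane-bound factors SREBP1 (Srebf1) and SREBP2 (Srebf2), which Scap escorts to the Golgi for cleavage when sterols are low and which the Insig proteins hold in the endoplasmic reticulum when sterols are high.

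The promoter sequences of members whose levels are described below are shown because these genes are textbook targets of SREBP, which acts beside the factor NF-Y, and NF-Y binds CCAAT. A promoter here is the stretch from 250 bases before to 50 bases after a RefSeq start site in GRCm38.p6, and 23 of the 30 members had one. Fdps, Fdft1, Sqle, Scd1, Scd2, Fads1 and Stard4 had no entry. CCAAT was searched on both strands, where it reads ATTGG, and was held by 18 of the 23 members and by 41.1% of 27025 genes with a promoter (37.4% of all 32851 promoters). By role it was held by 12 of 13 sterol branch genes, 2 of 5 fatty acid genes and 4 of 5 regulators and transport genes. A sterol regulatory element written as TCACNCCAC was held, on either strand, by Hmgcs1 alone among the 23 and by 1.44% of genes. The E-box CACGTG, which reads the same on both strands, was held by 4 members (Dhcr7, Hsd17b7, Insig1 and Scap) and by 8.09% of genes. The 7 sequences below run 5′ to 3′ on the gene's own strand and end at the base before the start site, with capitals marking CCAAT or ATTGG and, in Hmgcs1, TCACCCCAC. They are Hmgcs1 at chr13:119690201-119690350 (+), Idi1 at chr13:8885506-8885605 (+), Lss at chr10:76531505-76531604 (+), Cyp51 at chr5:4104698-4104797 (−), Ebp at chrX:8193513-8193612 (−), Hsd17b7 at chr1:169969206-169969305 (−) and Fasn at chr11:120824548-120824647 (−). The stretch of Idi1 lies wholly within the gene as the files bound it, because the annotated starts differ. Those of Lss, Cyp51 and Hsd17b7 reach into their genes for the same reason, and that of Ebp directly adjoins the gene. In Fasn the last 2 of the 3 copies, 1 on each strand, overlap in CCAATTGG.
Hmgcs1: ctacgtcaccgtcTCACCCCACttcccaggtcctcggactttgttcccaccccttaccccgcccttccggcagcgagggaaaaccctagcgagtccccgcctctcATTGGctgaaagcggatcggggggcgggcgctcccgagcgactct
Idi1: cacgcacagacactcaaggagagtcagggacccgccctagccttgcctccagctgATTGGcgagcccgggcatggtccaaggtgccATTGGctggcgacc
Lss: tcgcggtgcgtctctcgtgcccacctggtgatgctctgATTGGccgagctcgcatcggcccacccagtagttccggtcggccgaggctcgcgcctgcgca
Cyp51: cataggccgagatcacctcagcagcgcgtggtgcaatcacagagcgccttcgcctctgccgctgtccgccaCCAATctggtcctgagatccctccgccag
Ebp: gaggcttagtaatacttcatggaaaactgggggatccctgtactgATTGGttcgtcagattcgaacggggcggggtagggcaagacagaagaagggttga
Hsd17b7: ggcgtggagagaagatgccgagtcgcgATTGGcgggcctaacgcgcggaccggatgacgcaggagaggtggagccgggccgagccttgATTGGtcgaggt
Fasn: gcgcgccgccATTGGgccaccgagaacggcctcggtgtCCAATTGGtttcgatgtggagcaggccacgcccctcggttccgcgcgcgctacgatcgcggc
These matches are letters found in the window, and no binding was measured. All 7 stretches printed hold CCAAT, whereas the promoters of Acat2, Acaca, Elovl6, Fads2 and Scap do not. Whether the motif bears on how the levels varied was not tested. Among the 7, Hmgcs1 did not pass the test in any comparison and Ebp had the widest range between condition means of the 30. Hsd17b7 was highest in LIF+PD and Fasn in 2i+LIF.

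Members were expressed in every culture, from 3.37 FPKM (Hsd17b7 in 2i+LIF replicate 2) to 358 FPKM (Fasn in 2i+LIF replicate 1). Summed over the 30 genes, the level was 1820.4 and 1787 FPKM in 2i+LIF, 2199 and 2105 in 2i, 2046 and 1972 in CH+LIF, and 1725 and 1633 in LIF+PD. As sums of FPKM the conditions did not overlap, with 2i highest and LIF+PD lowest. As a share of all FPKM in a culture the order differed, at 0.268% and 0.276% in CH+LIF, 0.256% and 0.273% in 2i, 0.220% and 0.213% in LIF+PD, and 0.208% and 0.216% in 2i+LIF. By share CH+LIF overlapped 2i, and LIF+PD overlapped 2i+LIF. A moderated F test in limma over the 4 conditions passed an adjusted p of 0.05 for 19 of the 30 members, against 46.8% of all genes tested. By role these were 4 of 6 mevalonate genes, 8 of 10 squalene to cholesterol genes, 5 of 8 fatty acid genes and 2 of 6 regulators and transport genes. In at least 1 of the 6 pairwise comparisons 22 members passed, a count for which the share of all genes was not computed. They include Fdft1, Msmo1 and Fasn, which did not pass the F test (adjusted p = 0.0953, 0.0615 and 0.0663). The 8 that passed in none were Hmgcs1, Mvk, Acly, Scd1, Srebf1, Srebf2, Insig1 and Stard4.

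**Figure D1:**
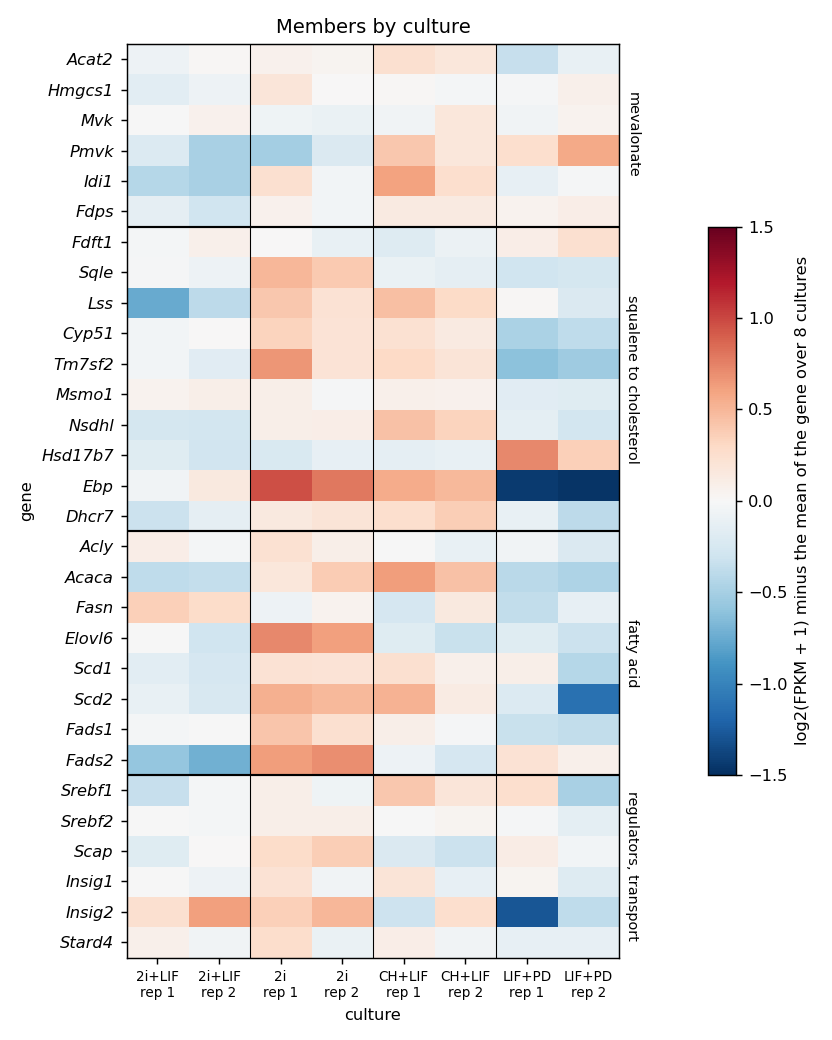
Heat map of the 30 members (rows, by role) in the 8 cultures (columns), coloured by log2(FPKM + 1) minus the gene's mean over the 8 cultures. Ebp is deepest blue in both LIF+PD cultures (13.7 and 13.4 FPKM), and Elovl6, Fads2, Sqle and Ebp are red in both 2i cultures.

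Genes at 1 FPKM or more numbered 11659 to 12109 per culture, and mitochondrial genes held 8.76% to 13.3% of all FPKM. Read depth relative to 2i+LIF replicate 1, estimated from the most common ratio of low values, which 16.9% to 22.4% of ratios shared, was between 0.499 (2i replicate 1) and 1.18 (CH+LIF replicate 2), and absolute depth is unknown. All 6 embryonic stem cell markers examined were above 1 FPKM in every culture, with a summed level of 2833 to 3604. Markers of other cells were low: the 8 of primitive endoderm summed to 1.52 to 5.22 FPKM, with 6 of the 8 below 1 in every culture and the highest sums in LIF+PD (3.90 and 5.22), and the 4 fibroblast markers summed to at most 1.39, with Lum and Dcn at 0 throughout. The 4 trophectoderm markers summed to 9.98 to 20.5 FPKM, highest in 2i (19.4 and 20.5) and in LIF+PD (16.1 and 20.3), but with different members: Gata3 made most of it in LIF+PD (14.4 and 18.4) and Cdx2 in 2i (12.2 and 10.6), while Cdx2 was lowest in LIF+PD (0.0433 and 0.096) and Eomes highest in CH+LIF (9.98 and 8.85). Neural markers (3 genes, mostly Pax6) summed to 12.03 and 12.05 in LIF+PD, 7.81 and 9.30 in 2i and between 1.09 and 2.49 elsewhere. Mesoderm markers (3 genes, mostly T) summed to 36.8 and 19.0 in CH+LIF, 15.99 and 9.02 in 2i, 5.25 and 4.19 in 2i+LIF, and 0.583 and 0.399 in LIF+PD. The part of these sums in the differences below was not tested. In such bulk samples fewer cells making a transcript and less of it per cell cannot be told apart.

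In the mevalonate part, Idi1 and Pmvk varied most and Hmgcs1 and Mvk least. Idi1, which isomerises isopentenyl diphosphate (chr13:8885501-8892451), was at 33.7 and 32.4 FPKM in 2i+LIF, 53.9 and 44.2 in 2i, 69.7 and 54.4 in CH+LIF, and 41.8 and 45.2 in LIF+PD. Both 2i+LIF cultures were below the other 6. In limma, Idi1 rose over 2i+LIF by 0.55 on the log2(FPKM + 1) scale in 2i (SE 0.14, adjusted p = 0.0371) and by 0.88 in CH+LIF (SE 0.14, adjusted p = 0.00578). Pmvk, which makes mevalonate diphosphate, split the conditions otherwise, with 31.6 and 25.7 FPKM in 2i+LIF and 25.3 and 31.2 in 2i against 48.7 and 40.9 in CH+LIF and 43.6 and 54.5 in LIF+PD. The 4 cultures that held both inhibitors were all below the 4 that held 1. Pmvk rose over 2i+LIF by 0.63 in CH+LIF (SE 0.17, adjusted p = 0.0326) and by 0.76 in LIF+PD (SE 0.17, adjusted p = 0.0174), and over 2i by 0.65 and 0.77.

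Fdps, which makes farnesyl diphosphate, was at 121 and 108 FPKM in 2i+LIF, 140.1 and 129.8 in 2i, 146 and 147 in CH+LIF, and 138 and 143 in LIF+PD. Both 2i+LIF cultures were lowest, and the rise over them passed the test in CH+LIF (log2 fold change 0.35, SE 0.08, adjusted p = 0.0236) and in LIF+PD (0.29, SE 0.08, adjusted p = 0.0424). A model annotated on the same strand, Gm43738, shares 26.7% of its exon bases, so reads may be split between the pair. Acat2, a cytosolic acetyl-CoA acetyltransferase, was at 48.7 and 46.4 FPKM in CH+LIF and 32.0 and 37.8 in LIF+PD, with the other 4 cultures between, and differed by 0.44 (SE 0.10, adjusted p = 0.0152) between those conditions. Its near-identical paralog Acat3, looked at afterwards because reads could be shared, was at 42.5 to 54.4 FPKM and passed in no comparison. Hmgcs1, the HMG-CoA synthase, was high throughout, at 109 and 114 FPKM in 2i+LIF against 118 to 138 in the other 6 cultures. Mvk, the mevalonate kinase, kept between 22.3 and 27.0 FPKM in all 8, and neither gene passed the F test (adjusted p = 0.255 for Hmgcs1).

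The squalene to cholesterol part held the member with the widest range between conditions, Ebp. This sterol isomerase (chrX:8185329-8193512, minus strand), which moves a double bond within the ring system, was at 37.4 and 43.2 FPKM in 2i+LIF, 76.5 and 68.0 in 2i, 57.4 and 54.9 in CH+LIF, and 13.7 and 13.4 in LIF+PD. The 4 conditions did not overlap, and the highest culture was 5.72 times the lowest. Ebp passed in all 6 comparisons, although the call of CH+LIF below 2i (log2 fold change −0.36, adjusted p = 0.043) was kept under only 6 of 18 alternatives and was lost, for example, after rescaling to the same sum (adjusted p = 0.180) and with the replicate block (0.054). It fell in LIF+PD by 1.50 from 2i+LIF (SE 0.10, adjusted p = 0.000199) and by 2.33 from 2i (fold 0.199, adjusted p = 3.15e-05), and rose over 2i+LIF by 0.83 in 2i (adjusted p = 0.00227) and by 0.47 in CH+LIF (adjusted p = 0.0160).

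Lss and Nsdhl were low in 2i+LIF and high in CH+LIF. Lss, the cyclase that closes the ring system (chr10:76531588-76557138), was at 30.1 and 39.2 FPKM in 2i+LIF, 68.8 and 60.0 in 2i, 70.7 and 63.4 in CH+LIF, and 52.1 and 44.1 in LIF+PD. Both 2i+LIF cultures lay below the rest, and Lss rose over them by 0.88 in 2i (SE 0.15, adjusted p = 0.0080) and by 0.94 in CH+LIF (SE 0.15, adjusted p = 0.0055), while the difference of 0.47 in LIF+PD did not pass (adjusted p = 0.0598). Nsdhl, a dehydrogenase of the demethylation steps, was at 23.8 and 23.4 FPKM in 2i+LIF, 30.7 and 30.9 in 2i, 39.2 and 36.4 in CH+LIF, and 25.8 and 23.4 in LIF+PD. It rose over 2i+LIF by 0.66 in CH+LIF (SE 0.09, adjusted p = 0.00295) and by 0.37 in 2i (SE 0.09, adjusted p = 0.0269). Dhcr7, a late reductase of the pathway, was at 24.1 and 27.5 FPKM in 2i+LIF, 33.6 and 34.8 in 2i, 36.1 and 39.2 in CH+LIF, and 27.9 and 22.9 in LIF+PD, so that the cultures in 2i and in CH+LIF were the 4 highest.

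**Figure D2:**
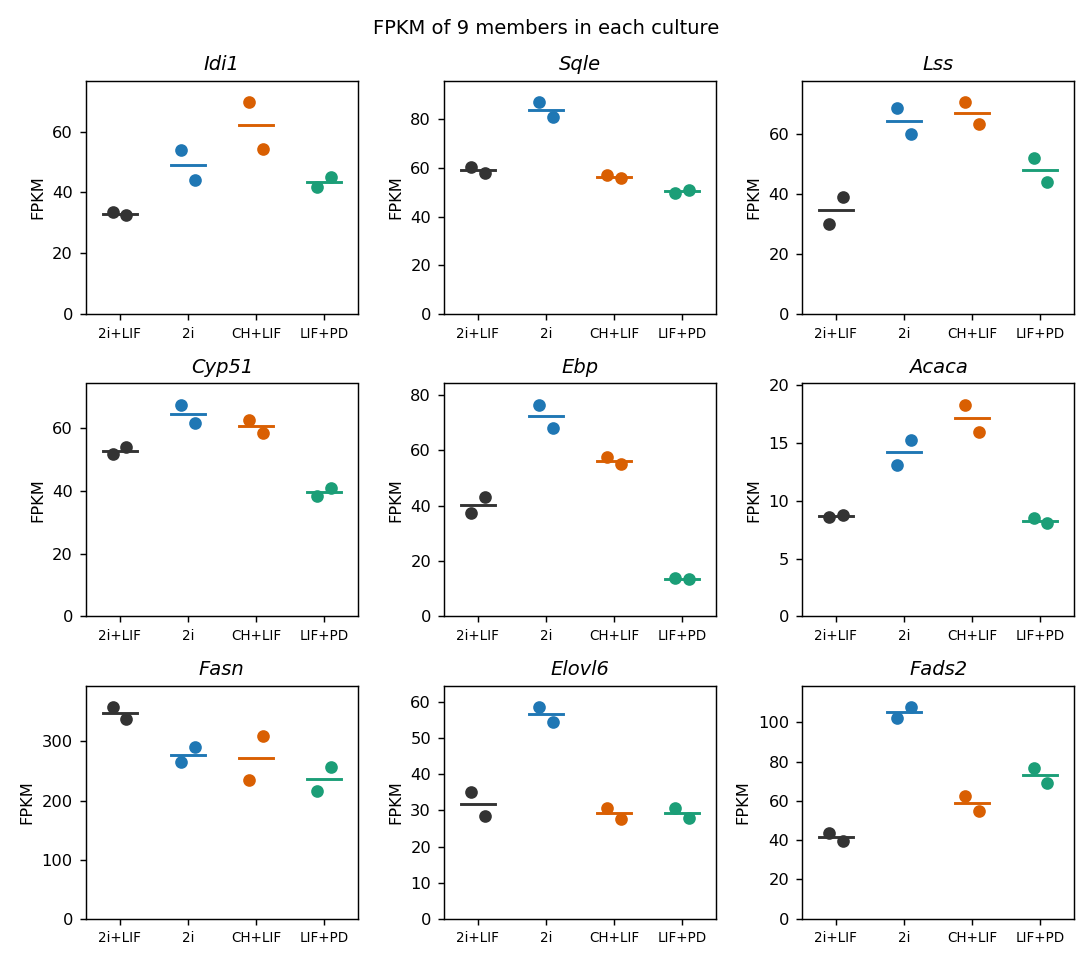
FPKM (vertical axes, from 0) of 9 members in each culture: points are the 2 cultures of a condition and lines their mean. Ebp stands at 13.7 and 13.4 in LIF+PD against 76.5 and 68.0 in 2i, and Fads2 at 102 and 108 in 2i against 43.6 and 39.6 in 2i+LIF.

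Sqle, Cyp51 and Tm7sf2 were lowest in LIF+PD. Sqle, the epoxidase of squalene, was at 60.6 and 58.1 FPKM in 2i+LIF, 87.1 and 81.0 in 2i, 57.0 and 55.9 in CH+LIF, and 49.8 and 51.0 in LIF+PD. The 2i cultures stood above all others, and the level in 2i was higher than in 2i+LIF by 0.50 (SE 0.08, adjusted p = 0.00523), while LIF+PD and CH+LIF were lower than 2i by 0.73 and 0.56. Cyp51, which removes a methyl group from lanosterol, was at 51.7 and 53.7 FPKM in 2i+LIF, 67.4 and 61.4 in 2i, 62.6 and 58.5 in CH+LIF, and 38.2 and 40.8 in LIF+PD. Its 2 LIF+PD cultures were below the other 6, and the level fell there by 0.41 from 2i+LIF (SE 0.09, adjusted p = 0.0142) and by 0.69 from 2i (adjusted p = 0.00164). Tm7sf2, a sterol reductase, was at 10.7 and 9.65 FPKM in 2i+LIF, 18.0 and 12.9 in 2i, 13.8 and 12.7 in CH+LIF, and 6.85 and 7.30 in LIF+PD. It fell by 1.01 from 2i to LIF+PD (SE 0.16, adjusted p = 0.00432). Tm7sf2 shares 12.1% of its exon bases with Vps51 on the same strand.

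Hsd17b7 and Fdft1 were the only members of the 30 whose 2 LIF+PD cultures were above the other 6, against 15.3% of all genes tested. Hsd17b7, a ketoreductase of the demethylation steps and the lowest of the group, was at 7.80 and 5.86 FPKM in LIF+PD and between 3.37 and 3.94 in the other cultures. It rose in LIF+PD by 0.78 over 2i+LIF (SE 0.15, adjusted p = 0.0116) and by 0.72 over 2i (adjusted p = 0.0147). Fdft1, the squalene synthase, was at 74.8 and 82.7 FPKM in LIF+PD against 61.0 and 65.5 in CH+LIF, a difference of 0.31 in log2 (SE 0.09, adjusted p = 0.0411), with 64.4 to 73.5 in the other conditions. Of its exon bases 18.3% are shared with Ctsb on the opposite strand. The Fdft1 call was kept under only 6 of 18 alternatives. It was lost under every rescaling, for example to the same sum (adjusted p = 0.138). Msmo1, an oxidase of the demethylation steps, was at 57.4 and 56.8 FPKM in LIF+PD and 64.0 to 69.0 elsewhere. Its fall by 0.25 from 2i+LIF had an adjusted p of 0.0462, but 0.338 after rescaling to the same sum. That call was kept under 9 of 18 alternatives.

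In the fatty acid branch Fads2, Fads1 and Elovl6 were highest in both 2i cultures. Fads2, the delta-6 desaturase (chr19:10064164-10101503), was at 43.6 and 39.6 FPKM in 2i+LIF, 102 and 108 in 2i, 62.4 and 55.1 in CH+LIF, and 76.6 and 69.3 in LIF+PD. The conditions did not overlap, with 2i+LIF lowest and 2i highest, and Fads2 rose over 2i+LIF by 1.32 in 2i (fold 2.49, SE 0.10, adjusted p = 0.000332), by 0.80 in LIF+PD (adjusted p = 0.00183) and by 0.49 in CH+LIF (adjusted p = 0.0135). Its neighbour Fads1, the delta-5 desaturase (chr19:10182888-10196870), was at 34.7 and 35.4 FPKM in 2i+LIF, 47.5 and 41.8 in 2i, 37.6 and 34.9 in CH+LIF, and 28.0 and 27.2 in LIF+PD. In LIF+PD Fads1 fell from 2i+LIF by 0.34 (SE 0.09, adjusted p = 0.0354) where Fads2 rose. The Fads1 call was kept under 12 of 18 alternatives. It was lost after rescaling to the same sum (log2 fold change −0.20, adjusted p = 0.119). Elovl6, which elongates palmitate to stearate, was at 58.6 and 54.6 FPKM in 2i and between 27.6 and 35.2 in the other 6 cultures. Both 2i cultures stood apart, and the level in 2i was higher than in 2i+LIF by 0.82 (SE 0.12, adjusted p = 0.00489), while LIF+PD and CH+LIF were lower than 2i by 0.92 and 0.93.

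Acaca and Fasn, which act in succession, did not vary together. Acaca, the acetyl-CoA carboxylase that commits acetyl-CoA to fatty acids (chr11:84129672-84401651), was at 8.59 and 8.74 FPKM in 2i+LIF, 13.1 and 15.3 in 2i, 18.3 and 15.9 in CH+LIF, and 8.48 and 8.05 in LIF+PD. The 4 cultures in 2i+LIF and LIF+PD were below the 4 in 2i and CH+LIF, and Acaca rose over 2i+LIF by 0.65 in 2i (SE 0.12, adjusted p = 0.00996) and by 0.91 in CH+LIF (SE 0.12, adjusted p = 0.00276). Fasn, the fatty acid synthase, was at 358 and 338 FPKM in 2i+LIF, 264 and 291 in 2i, 235 and 309 in CH+LIF, and 216 and 256 in LIF+PD. It was the only member whose 2 cultures in 2i+LIF were the highest of all 8, against 9.64% of all genes tested, and its fall of 0.56 in LIF+PD passed (SE 0.15, adjusted p = 0.0305).

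Scd2, a stearoyl-CoA desaturase, was at 148 and 136 FPKM in 2i+LIF, 231 and 224 in 2i, 230.2 and 174 in CH+LIF, and 139 and 73.3 in LIF+PD. The 2 LIF+PD cultures differed widely, and the fall from 2i to LIF+PD was 1.17 (SE 0.27, adjusted p = 0.0206). Its paralog Scd1, which lies close by on chromosome 19, was at 40.5 to 64.9 FPKM and passed in no comparison. The counting of reads common to the 2 paralogs is uncertain beyond the statement that uniquely mapped reads were kept. Acly, which makes cytosolic acetyl-CoA from citrate, was at 150.2 to 206 FPKM and passed in none either.

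Of the regulators and transport genes, 2 passed the F test. Scap was at 21.2 and 24.2 FPKM in 2i+LIF, 29.4 and 31.4 in 2i, 20.7 and 19.2 in CH+LIF, and 26.3 and 23.4 in LIF+PD. Both 2i cultures were highest and both CH+LIF cultures lowest, with 2i higher than 2i+LIF by 0.41 (SE 0.11, adjusted p = 0.0368) and CH+LIF lower than 2i by 0.59 (SE 0.11, adjusted p = 0.00894). A transcript on the opposite strand, 5830462I19Rik, shares 13.2% of its exon bases. Insig2 was at 12.7 and 16.7 FPKM in 2i+LIF, 13.8 and 15.3 in 2i, 8.30 and 12.8 in CH+LIF, and 3.74 and 7.89 in LIF+PD. The 2 LIF+PD cultures were lowest, and Insig2 fell there by 1.26 from 2i+LIF (SE 0.32, adjusted p = 0.0269) and by as much from 2i. The confidence bounds deposited with its values were wide and were not used in the fit. They ran from 3.08 to 24.3 and from 4.22 to 30.0 in 2i+LIF, overlapping 2.23 to 14.0 and 4.73 to 12.6 in LIF+PD.

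The SREBP genes themselves did not pass in any comparison. Srebf2 was at 69.7 and 68.6 FPKM in 2i+LIF, 74.4 and 74.9 in 2i, 69.9 and 72.6 in CH+LIF, and 69.1 and 63.3 in LIF+PD. Its highest culture was 1.18 times its lowest. Srebf1 was at 58.0 and 72.5 FPKM in 2i+LIF, 79.1 and 71.0 in 2i, 98.7 and 84.4 in CH+LIF, and 88.5 and 52.6 in LIF+PD, with cultures of a condition far apart in LIF+PD. These are transcript levels, and SREBP cleavage was not measured. Insig1, a textbook SREBP target, was at 41.8 to 55.9 FPKM, and Stard4, a cytosolic sterol carrier, at 9.59 to 12.9.

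Between 2i and 2i+LIF, which differ by LIF, 10 of the 30 members rose in 2i and none fell, against 9.77% of all genes tested that rose, 8.86% that fell and 18.6% in both directions. They were Idi1, Sqle, Lss, Nsdhl and Ebp of the sterol branch, Acaca, Elovl6, Fads1 and Fads2 of the fatty acid branch, and Scap. The median log2 fold change was 0.15 in the mevalonate part, 0.38 in the squalene to cholesterol part, 0.53 in the fatty acid branch and 0.12 among the regulators, and 0.04 over all genes. Calls for Sqle, Lss, Ebp, Elovl6 and Fads2 were kept with each culture left out in turn. Without any 1 culture of 2i+LIF, 2i or CH+LIF, fewer members passed, and fewer of all genes tested. Without 1 culture the adjusted p reached 0.0584 for Acaca (2i+LIF replicate 1), 0.118 for Nsdhl (2i+LIF replicate 2), 0.153 for Idi1 and 0.161 for Fads1 (2i replicate 1), and 0.178 for Scap (2i+LIF replicate 1).

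**Figure D3:**
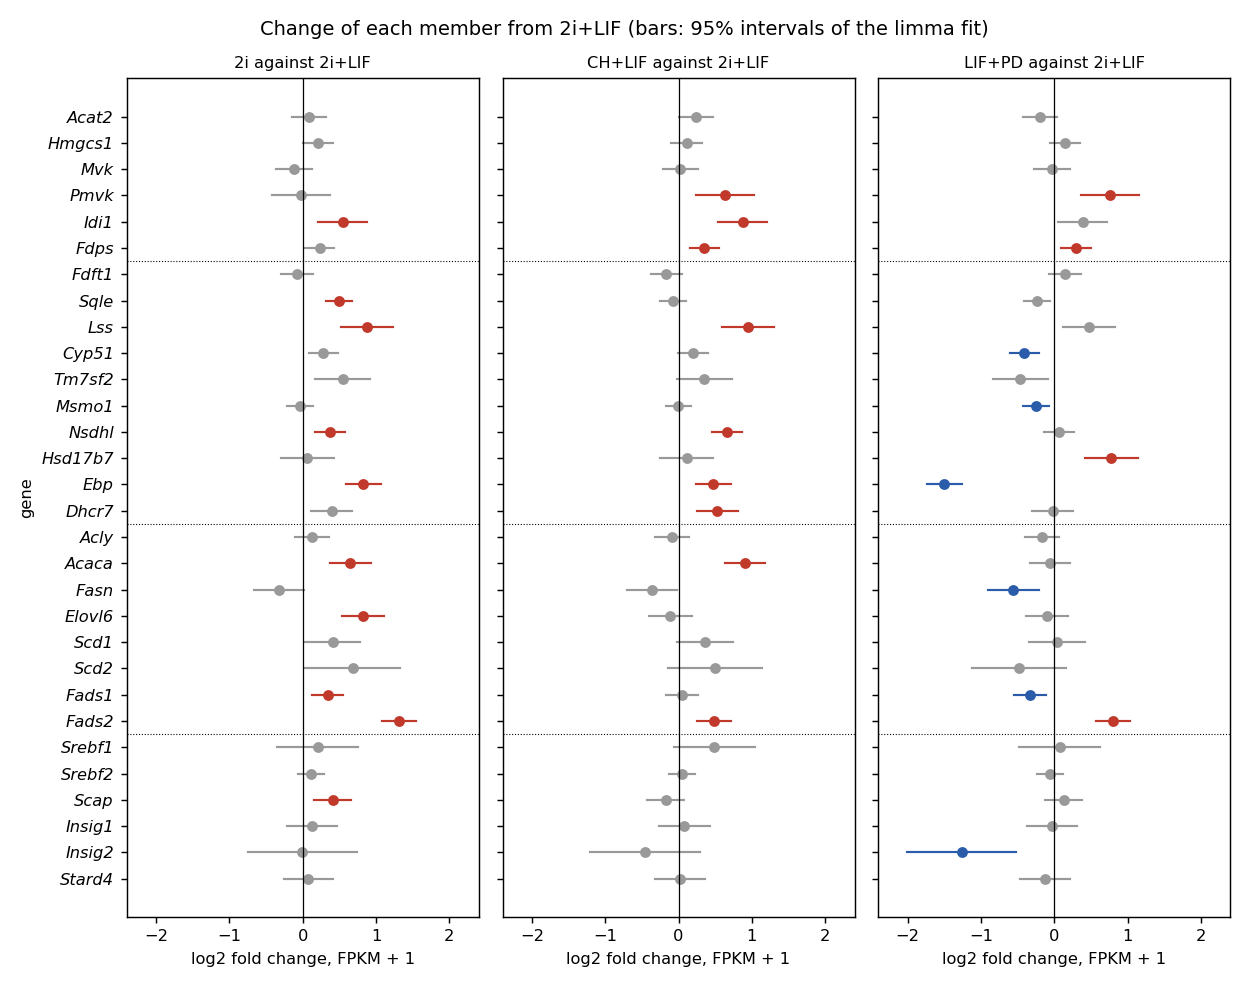
Log2 fold change in FPKM + 1 of each member from 2i+LIF in 2i, CH+LIF and LIF+PD (points), with 95% intervals of the limma fit (bars), red where higher and blue where lower at an adjusted p under 0.05, grey otherwise. In 2i and CH+LIF the coloured points all lie above 0, 10 and 9 of 30, and in LIF+PD 4 lie above and 6 below.

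In CH+LIF, which lacks the MEK inhibitor, 9 members rose over 2i+LIF and none fell, against 12.2% of all genes tested that rose, 13.3% that fell and 25.4% in both directions. In the sterol branch 7 of 16 rose (Pmvk, Idi1, Fdps, Lss, Nsdhl, Ebp and Dhcr7), in the fatty acid branch Acaca and Fads2, and no regulator passed. The median log2 fold change was 0.30 in the sterol branch and 0.20 in the fatty acid branch, against 0.01 over all genes. With FPKM rescaled to the same sum, which raised the median of all genes to 0.18, 14 members rose and none fell. Of the 12927 genes tested, 2898 rose and 1017 fell under that rescaling. Calls for Idi1, Lss, Nsdhl and Acaca were kept with each culture left out. Fewer members, and fewer of all genes tested, passed without any 1 culture of 2i+LIF or CH+LIF. Both were fewest without CH+LIF replicate 1. The adjusted p reached 0.167 for Pmvk and 0.0782 for Fads2 without that culture, 0.123 for Fdps without 2i+LIF replicate 2, and 0.104 for Dhcr7 and 0.0889 for Ebp without 2i+LIF replicate 1.

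In LIF+PD, which lacks the GSK3 inhibitor, 4 members rose from 2i+LIF (Pmvk, Fdps, Hsd17b7 and Fads2) and 6 fell (Cyp51, Msmo1, Ebp, Fasn, Fads1 and Insig2), against 14.8% and 10.4% of all genes tested and 25.2% in both directions. The median log2 fold change was 0.22 in the mevalonate part, −0.13 in the squalene to cholesterol part and −0.13 in the fatty acid branch. Over the whole sterol branch it was 0.02, against 0.03 over all genes. With FPKM rescaled to the same sum in each culture, a step that raised the median of all genes to 0.15, the split became 6 higher and 2 lower. Of the 12927 genes tested, 2601 were then higher and 876 lower, so the members were near the shares of all genes. Calls for Ebp and Fads2 were kept with each culture left out. Fewer members, and fewer of all genes tested, passed without any 1 culture of 2i+LIF, LIF+PD or CH+LIF. Without 2i+LIF replicate 2 the adjusted p reached 0.0956 for Pmvk, 0.199 for Fdps, 0.0661 for Hsd17b7, 0.171 for Msmo1, 0.137 for Fads1 and 0.132 for Insig2, and without LIF+PD replicate 1 it reached 0.0812 for Cyp51 and 0.155 for Fasn.

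The most members, 14, passed between LIF+PD and 2i, which differ by LIF and by CH. In LIF+PD 12 members fell (Sqle, Cyp51, Tm7sf2, Nsdhl, Ebp, Dhcr7, Acaca, Elovl6, Scd2, Fads1, Fads2 and Insig2) and 2 rose (Pmvk and Hsd17b7), against 11.1% and 14.0% of all genes tested and 25.1% in both directions. In the fatty acid branch all 8 log2 fold changes were below 0, from −1.17 to −0.24, and 5 passed. In the squalene to cholesterol part 6 of 10 fell, with a median of −0.42, whereas the mevalonate part had a median of −0.0013. Calls for Sqle, Cyp51, Tm7sf2, Ebp, Acaca, Elovl6 and Fads1 were kept with each culture left out. Those for Nsdhl and Dhcr7 were kept under only 7 and 6 of 18 alternatives. Both were lost after rescaling to the same sum (adjusted p = 0.120 and 0.126), and also without a culture of a condition not compared. Fewer members, and fewer of all genes tested, passed without any 1 of the 8 cultures. Without LIF+PD replicate 2 the adjusted p reached 0.178 for Nsdhl, 0.19 for Dhcr7, 0.0859 for Pmvk and 0.0599 for Fads2, without LIF+PD replicate 1 it reached 0.0787 for Hsd17b7 and 0.103 for Insig2, and without 2i replicate 1 it was 0.0862 for Scd2.

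Between CH+LIF and 2i, 1 member was higher in CH+LIF (Pmvk) and 5 were lower (Sqle, Ebp, Elovl6, Fads2 and Scap), against 10.6% and 13.3% of all genes tested and 23.9% in both directions. Rescaled to the same sum, the split was 3 higher and 4 lower, against 2051 and 1156 of the 12927 genes tested. With median-of-ratios size factors it was 2 and 4, against 1518 and 1591. Calls for Sqle, Elovl6 and Fads2 were kept with each culture left out. Fewer members, and fewer of all genes tested, passed without 2i replicate 1, any 1 culture of LIF+PD or any 1 of CH+LIF. Members were fewest without CH+LIF replicate 2. The adjusted p reached 0.051 for Scap without that culture, 0.155 for Pmvk without CH+LIF replicate 1 and 0.179 for Ebp without 2i replicate 1.

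Between CH+LIF and LIF+PD, each with LIF and 1 inhibitor, 11 members were higher in CH+LIF and 2 lower, against 12.6% and 17.8% of all genes tested and 30.4% in both directions. Higher were Acat2, Idi1, Cyp51, Tm7sf2, Msmo1, Nsdhl, Ebp, Dhcr7, Acaca, Scd2 and Fads1, and lower were Fdft1 and Hsd17b7. Ebp differed most, by 1.97 (fold 3.93, SE 0.10), then Scd2 by 0.98 and Acaca by 0.97, and 8 of 10 squalene to cholesterol genes passed. Calls for Cyp51, Nsdhl, Ebp and Acaca were kept with each culture left out. Fewer members passed without any 1 of the 8 cultures, and fewer of all genes tested except without a culture of 2i. The adjusted p reached 0.0819 for Acat2, 0.182 for Idi1, 0.0548 for Tm7sf2, 0.103 for Fads1 and 0.167 for Scd2 without CH+LIF replicate 1, 0.0684 for Dhcr7 without CH+LIF replicate 2, 0.143 for Msmo1 and 0.19 for Fdft1 without LIF+PD replicate 2, and 0.0927 for Hsd17b7 without LIF+PD replicate 1.

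Counted by whole cultures rather than by the fit, 10 of the 30 members had both LIF+PD cultures below the other 6 (Acat2, Sqle, Cyp51, Tm7sf2, Msmo1, Ebp, Acaca, Fads1, Insig2 and Stard4), against 11.9% of all genes tested. Both 2i cultures were highest for 7 members (Sqle, Ebp, Elovl6, Fads1, Fads2, Scap and Srebf2), against 10.6%, and both CH+LIF cultures for 6 (Acat2, Idi1, Fdps, Nsdhl, Dhcr7 and Acaca), against 12.8%. Both 2i+LIF cultures were lowest for 5 (Hmgcs1, Idi1, Fdps, Lss and Fads2), against 11.9%. Both 2i cultures were lowest for Mvk alone, against 9.06%, and both CH+LIF cultures for Scap alone, against 13.9%.

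The branches differed in which condition stood highest. With each gene centred on its mean over the 8 cultures, the median of the 16 sterol genes was 0.24 and 0.17 in CH+LIF, 0.12 and 0.02 in 2i, −0.11 and −0.11 in 2i+LIF, and −0.12 and −0.15 in LIF+PD. The median of the 8 fatty acid genes was 0.32 and 0.31 in 2i, 0.04 and 0.03 in CH+LIF, −0.07 and −0.24 in 2i+LIF, and −0.20 and −0.34 in LIF+PD. The sterol median was thus highest in both CH+LIF cultures and the fatty acid median in both 2i cultures. The sterol minus fatty acid difference was −0.20 and −0.28 in the 2i cultures, 0.20 and 0.14 in CH+LIF, 0.08 and 0.19 in LIF+PD, and −0.04 and 0.14 in 2i+LIF, with a pooled SD between cultures of a condition of 0.08. It was therefore lowest in both 2i cultures. LIF+PD overlapped both 2i+LIF and CH+LIF, while those 2 only just did not meet, at 0.135 in 2i+LIF replicate 2 and 0.138 in CH+LIF replicate 2. These medians are descriptions over few genes, with no test.

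**Figure D4:**
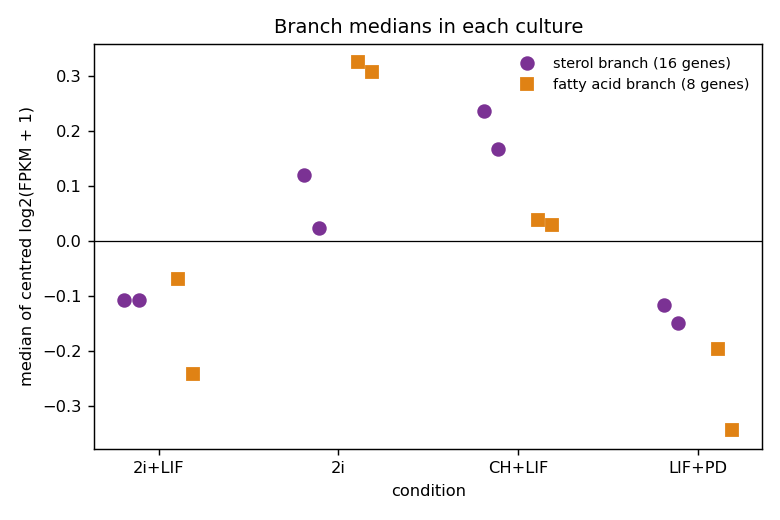
Median over the 16 sterol branch genes (circles) and the 8 fatty acid branch genes (squares) of log2(FPKM + 1) centred on each gene's mean, for the 2 cultures of each condition. The fatty acid median lies above the sterol median in both 2i cultures (0.32 against 0.12, and 0.31 against 0.02) and below it in CH+LIF.

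Other genes of the pathways were read from lists chosen by role. Of 10 other enzymes of sterol and isoprenoid synthesis 7 passed the F test, which 46.8% of all genes tested passed. Pdss1, a subunit of the enzyme that makes the isoprenoid tail of ubiquinone, was at 18.9 and 16.7 FPKM in 2i+LIF, 18.8 and 15.6 in 2i, 22.8 and 18.3 in CH+LIF, and 9.26 and 8.83 in LIF+PD. Both LIF+PD cultures were below the other 6, and Pdss1 fell there by 0.90 from 2i+LIF (SE 0.14, adjusted p = 0.00471) and by 0.85 from 2i (SE 0.14, adjusted p = 0.00547). Among the 10, 4 rose and none fell in 2i against 2i+LIF (9.77% of all genes rose), 3 rose and none fell in CH+LIF against 2i+LIF (12.2% rose), and 4 fell and none rose in LIF+PD against 2i (11.1% fell). Of 11 genes of SREBP processing and sterol sensing 2 passed the F test, Mbtps2 and Rnf145. Mbtps2, the protease that makes the second SREBP cut, was at 19.3 and 18.0 FPKM in LIF+PD and between 7.35 and 13.7 elsewhere.

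Of 15 genes of sterol uptake, storage and export 9 passed the F test, against 46.8% of all genes. Soat1, which esterifies cholesterol for storage, was at 13.6 and 11.9 FPKM in 2i and between 3.66 and 5.39 elsewhere, and rose over 2i+LIF by 1.41 in 2i (SE 0.12, adjusted p = 0.000456). Npc2, which carries cholesterol out of the lysosome, was highest in 2i+LIF, at 126 and 130.4 FPKM. It was at 95.6 and 75.5 in 2i, 58.8 and 59.6 in CH+LIF, and 42.1 and 42.5 in LIF+PD. Of 22 other genes of fatty acid and glycerolipid synthesis 12 passed, near that share. Acss2, which makes acetyl-CoA from acetate, was at 3.15 and 3.41 FPKM in CH+LIF and between 8.37 and 12.3 elsewhere. Of 16 genes of fatty acid oxidation past the minimum level 7 passed, also near it. Acadm, a dehydrogenase of that pathway, was at 105 and 103 FPKM in 2i+LIF and lowest in 2i, at 65.3 and 64.2. It was at 101 and 93.7 in CH+LIF and highest in LIF+PD, at 167 and 170.1. Other oxidation genes differed from it. Cpt1a was lowest in LIF+PD (10.1 and 9.09 FPKM). Slc25a20 (14.5 and 17.2) and Cpt1c (4.34 and 6.23) were lowest in CH+LIF, with their highest means in LIF+PD.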

How the data were processed

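Polyadenylated RNA per the labels, or RNA depleted of ribosomal RNA per the study's methods, was sequenced from 8 cultures of Rex1GFPd2 embryonic stem cells, 2 per condition, and grouped by the labelled condition. The authors aligned reads to GRCm38 (mm10) with TopHat2, kept uniquely mapped reads, and deposited FPKM per gene with confidence bounds, which were not used. Of the 240 member values 31 lie outside the bounds deposited beside them, all in Hmgcs1, Fdps, Lss, Cyp51 and Fads2, for a reason not given in the sources used here. The submitters' processing notes also name Cufflinks and Cuffdiff, with no versions. Strand use in the FPKM step is not given in the sources used here. The authors' test ran on counts, which were not used here.

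Entries with a repeated identifier (22) were summed. Values were analysed as log2(FPKM + 1), so fold changes of low genes are understated. The 12927 genes that reached 1 FPKM in 2 or more cultures were fitted with limma 3.58.1 in R 4.3.3 (4 group means, mean-variance trend), with 6 contrasts and an F test. P-values were adjusted by Benjamini-Hochberg over all genes, with a threshold of 0.05. The script was tested on simulated data. Branch medians carry no test. Exon overlaps came from GENCODE M21 and promoters from RefSeq (GRCm38.p6). Positions in the files start from 0 and were converted to count from 1. Every member is described, and from each other list the 4 genes (2 for SREBP processing) that passed the F test with the widest range of condition means were eligible to be named. Acat3 was added after the values were seen. The members and lists were chosen with earlier results of these data known. Other pseudocounts, filters, scalings, variance models, sample sets, a replicate block and leaving out each culture were tried. FPKM hold no counts, so no counting interval is given.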

Additional observations from a re-analysis of the deposited data

How the results depend on the processing

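Of 62 member calls over the 6 comparisons, none reversed, 25 were kept under every alternative run, 51 under the 3 rescalings and 39 under every alternative that left no culture out. Calls lost numbered 15 with no filter, 13 without the mean-variance trend, 19 with only the 2 conditions compared, 8 after rescaling to the same sum, 5 with median-of-ratios size factors, 1 with quantile normalization and 0 with either pseudocount. Requiring a mean FPKM of at least 5 removed Hsd17b7 and lost none of the 59 other calls. Rescaling to the same sum shifted the median of all genes to 0.15 for LIF+PD and 0.18 for CH+LIF against 2i+LIF. In the latter comparison it gave 14 members changed, and 3915 of the 12927 genes tested. Fitting only the 2 conditions gave 9 members in LIF+PD against 2i, and 2278 of the 12927 genes. The cause of these shifts was not tested. The differences between replicates 1 and 2 of a condition correlated between conditions at −0.03 to 0.09 over 12927 genes. Pairing that touched few genes would hardly move these correlations, so they cannot decide whether replicate numbers pair the cultures. The replicate block raised the number of all genes that passed in every comparison, and in the F test from 6052 to 6265. With the replicate block the counts were 11 for 2i, 10 for LIF+PD and 9 for CH+LIF against 2i+LIF, 14 for LIF+PD and 7 for CH+LIF against 2i, 15 for CH+LIF against LIF+PD and 21 for any condition. 2 calls lost significance under it (Dhcr7 in LIF+PD against 2i, Ebp in CH+LIF against 2i).

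With 1 culture left out the count ranged from 5 to 11 for 2i against 2i+LIF, 3 to 11 for LIF+PD against 2i+LIF, 4 to 10 for CH+LIF against 2i+LIF, 8 to 12 for LIF+PD against 2i, 3 to 6 for CH+LIF against 2i, 5 to 12 for CH+LIF against LIF+PD and 15 to 19 for any condition. The lone culture left in a condition is then assumed to vary like the others. Leaving out a culture of either compared condition also lowered the number of all genes tested that passed, in every comparison.

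The sterol minus fatty acid difference of median log2 fold changes was −0.27 for 2i against 2i+LIF (−0.33 to −0.17 with 1 culture left out, −0.19 with a pseudocount of 5), 0.15 for LIF+PD against 2i+LIF (0.089 to 0.30), 0.09 for CH+LIF against 2i+LIF (0.04 to 0.12), 0.35 for LIF+PD against 2i (0.25 to 0.47), 0.26 for CH+LIF against 2i (0.24 to 0.35) and 0.08 for CH+LIF against LIF+PD (−0.0086 without CH+LIF replicate 1 to 0.10, and 0.18 with a mean FPKM of at least 5). With 2 cultures a condition, differences near the spread of Scd2 or Srebf1 could not be resolved.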

Other observations

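Porcn, which acylates Wnt proteins and lies directly upstream of Ebp on the same strand (chrX:8193848-8206525), was looked at after the values of Ebp were seen. It was at 4.90 and 1.38 FPKM in 2i+LIF, 19.7 and 16.8 in 2i, 20.0 and 19.3 in CH+LIF, and 0.478 and 1.34 in LIF+PD. In limma it rose over 2i+LIF by 2.36 in 2i (SE 0.41, adjusted p = 0.00847) and by 2.46 in CH+LIF (SE 0.41, adjusted p = 0.00620), and fell from 2i by 3.37 in LIF+PD (SE 0.41, adjusted p = 0.00146). The fall from 2i+LIF to LIF+PD, which passed for Ebp, did not for Porcn (log2 fold change −1.01, adjusted p = 0.112). Whether reads run from one gene into the other was not tested.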
